A study of Arabidopsis thaliana with 6 samples.

Results

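The plastid genome encodes part of the machinery that expresses it, and 26 of the 22810 probe sets on the ATH1 array measured such a gene. A probe set was taken when it was annotated to a single gene of the plastid genome with a symbol that begins with rps, rpl, rpo, matK, clpP, accD, ycf, ccsA or cemA, at any brightness. The 26 members comprise 15 ribosomal protein genes (8 of the small and 7 of the large subunit), 4 genes of RNA polymerase subunits and 7 others, namely matK, clpP, accD, ccsA, cemA, ycf3 and ycf4. They are 26 of 69 probe sets with a single plastid gene. The other 43 belong to photosynthesis genes. A further 7 probe sets, for rps12, rpl2, rpl23, rps7, ycf1 and ycf2, were annotated to 2 copies of their gene and are not members.

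RNA was taken from rosette leaves of 26-day-old plants of 3 karyotypes, with 2 arrays for each. The diploid control was wild type Col-0 (WT). In trisomy 2 (AAA) the plants have a complete additional chromosome 2 (Chr.2), with no T-DNA in its AUR2 copies. In tertiary trisomy 2 (AAa, aur2-1) the additional chromosome carries Chr.2 up to a T-DNA in AUR2, joined to the part of chromosome 3 (Chr.3) before AT3G20040. All plants are in the Col-0 background and grew at 22 °C with 16 h of light a day, without further treatment. Both trisomics descend from the aur2-1 line and were picked by their round leaves before genotyping, whereas the diploid WT did not come from that line. Each array holds a pool of 21 to 35 plants, and the sources used here do not say whether the pools of a karyotype were grown separately.

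Plastid genes are transcribed by a bacterial-type polymerase, whose core subunits are encoded in the plastid, and by phage-type polymerases from the nucleus. The plastid ribosome is likewise a mosaic of proteins from both genomes, and its plastid genes lie mostly in clusters transcribed together and then processed. In leaves this machinery makes the core proteins of the photosynthetic complexes. None of the members lies on a triplicated chromosome, since the plastid genome is separate from the nucleus. The number of plastid DNA copies may still differ, as the study's DNA arrays gave higher chloroplast signal in both trisomics than in Col-0. The study proposes homologous sequences in the trisomic genomes or, alternatively, more chloroplasts. The part of plastid DNA copies in the ratios given here was not tested.

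Median signal of the arrays lay between 155 and 171, and the mean signal of 24 of the 26 members reached 77.8, which is the 40th percentile over the array. The exceptions were rpoB and rps14. The 5 genes that define the machinery (rps16, rps2, rpoC1, rpoC2 and matK) were all above this level. Marker genes were read only where the annotation used here gave a probe set for that gene alone. Other markers may be on the array without such an annotation. Of 5 leaf mesophyll markers only RCA, the activase of Rubisco, could be read. It gave 41510 to 45200 in WT, 40080 to 49630 in AAA and 27870 to 32500 in AAa. Its difference from WT in AAa did not pass the test (adjusted p = 0.113, limma). RCA has 3 copies in AAA. Of 2 root hair markers only EXP7 could be read, at 3.86 to 6.23 in WT, 4.89 to 10.2 in AAA and 22.6 to 43.8 in AAa, below the 40th percentile. No gene of the flower, seed and senescence lists (0 of 4, 0 of 2 and 0 of 2) could be read in this way. These lists were not analysed here. For ubiquitin, whose 3′ and 5′ probe sets gauge RNA integrity, 3′ over 5′ signal on the log2 scale was 1.64 and 1.86 in WT, 1.68 and 1.56 in AAA, and 1.14 and 1.35 in AAa. The same ratio for GAPDH was 0.04 and 0.08 in WT, 0.25 and 0.32 in AAA, and 0.48 and 0.07 in AAa, and that for actin was 3.51 and 3.90, 3.30 and 3.74, and 2.86 and 3.52. Both AAa arrays lay below WT for ubiquitin and both AAA arrays above WT for GAPDH, while AAa overlapped with WT for GAPDH. In pooled leaves, differences in the share of green cells, in plastids per cell and in RNA per plastid cannot be told apart, in either direction. The part of cell makeup and RNA integrity in the differences given here was not tested.

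The values below are deposited signals after centring of each array on nuclear genes that have 2 copies in every karyotype. Ratios are on the log2 scale with the standard error (SE) of the limma fit, and adjusted p-values are Benjamini-Hochberg values over all 22746 probe sets that are not controls. They measure only the spread between these arrays. With 2 arrays a group, the smallest two-sided p of an exact permutation test is 0.333. AAA and AAa were set against the same WT arrays, so the ratios of both to WT share any error of those arrays.

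**Figure D1:**
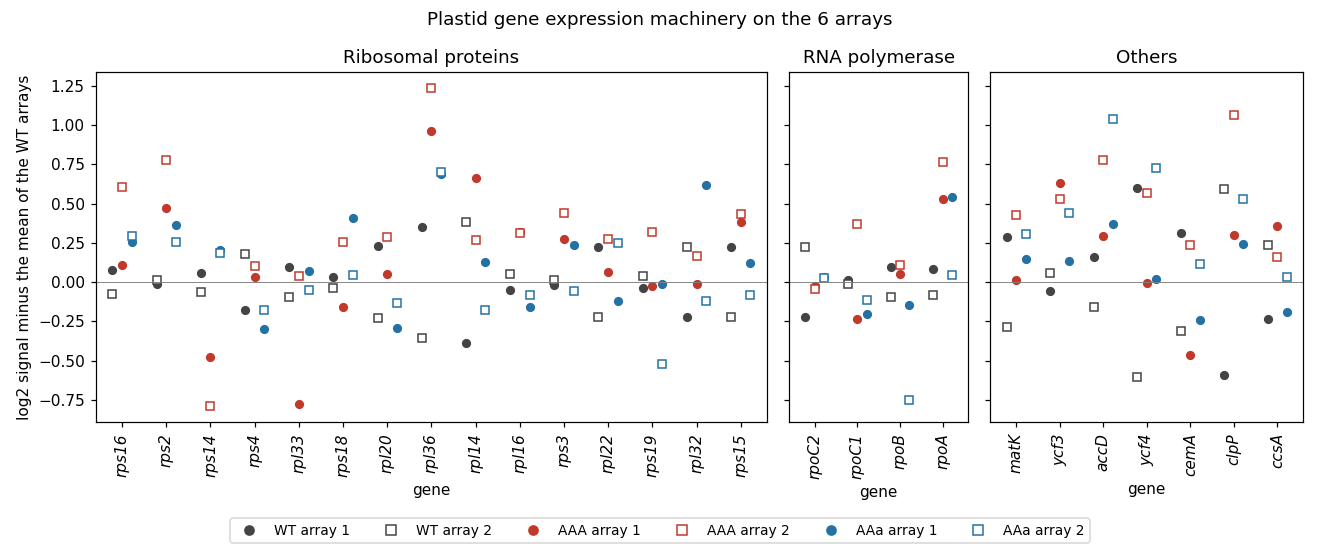
Log2 signal of each of the 26 members on each array, minus the mean of the WT arrays (vertical axis), by gene (horizontal axis) and karyotype (colour; circles for array 1, squares for array 2). The AAA points of rpl36 and rps2 stand above all WT points, those of rps14 stand below, and the WT arrays of ycf4 and clpP lie farthest apart.

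AAA was set against WT to ask whether plastid transcripts differ with a complete extra Chr.2. Among the members rpl36, rpoA, rps2 and ycf3 rose and none fell: 2 of 15 ribosomal protein genes, 1 of 4 polymerase genes and 1 of 7 others. Across all probe sets 5.72% were higher and 1.43% lower, and among 5508 expressed nuclear genes with 2 copies in every karyotype 2.34% were higher. At an unadjusted p below 0.05, 7 members were higher and 0 lower, against 13.3% and 6.49% of all probe sets. In the limma fit the log2 ratio was positive for 22 of 26 members, as for 53.5% of all probe sets. Its median was 0.24 against 0.03 over all probe sets. Among the 5508 expressed nuclear genes with 2 copies 48.1% were positive and the median was -0.012. Both AAA arrays lay above both WT arrays for 9 members and below for 1, against 27.3% and 20.0% of all probe sets.

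The largest difference was that of rpl36 (locus ArthCp057), which encodes a small protein of the large ribosomal subunit. Its signal was 8964 and 5498 in WT, 13690 and 16540 in AAA, and 11300 and 11410 in AAa. All 4 trisomic arrays were above both WT arrays, which differed 1.63-fold from each other. The means were 7231 ± 2451 in WT and 15120 ± 2016 in AAA (SD, n = 2), and rpl36 in AAA rose 2.14-fold (log2 1.1, SE 0.21, adjusted p = 0.0126, limma).

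The gene rps2 (ArthCp011), for a protein of the small subunit, gave 240.9 and 245.4 in WT, 337.2 and 417.3 in AAA, and 312.9 and 290.6 in AAa. The 3 karyotypes did not overlap, with AAA highest and WT lowest. In AAA it was 1.54-fold higher (log2 0.63, SE 0.15, adjusted p = 0.0409, limma).

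The gene rpoA (ArthCp055) encodes the alpha subunit, on which the polymerase core assembles. It gave 6246 and 5573 in WT, 8516 and 10010 in AAA, and 8591 and 6096 in AAa. Both AAA arrays stood above WT, whereas one AAa array stood above and the other between the WT arrays. The level of rpoA in AAA rose 1.56-fold (log2 0.65, SE 0.16, adjusted p = 0.0471, limma).

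The gene ycf3 (ArthCp023), whose product assists photosystem I assembly, gave 274.2 and 296.8 in WT, 442.2 and 410.9 in AAA, and 313.0 and 387.1 in AAa. The arrays of the 3 karyotypes were again separate and in the order of those of rps2. The level of ycf3 in AAA rose 1.49-fold (log2 0.58, SE 0.15, adjusted p = 0.0472, limma).

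These calls rest on few arrays. The calls of rps2 and ycf3 were lost when any of the 6 arrays was left out (log2 0.47 to 0.78 and 0.52 to 0.64), and that of rpoA when any WT or AAA array was left out (0.53 to 0.76). That of rpl36 was lost without WT array 2 (0.75, adjusted p = 0.0640, limma), AAA array 1 (1.24, 0.0752) or AAA array 2 (0.96, 0.131), so that 0 to 2 members were higher with 1 array left out. With signals as deposited, or with quantile normalization, only rpl36 of the 4 was called, and with a floor of 16 under the signals 0 were. Without AAA array 2, rpl33 was lower than WT (log2 -0.78, adjusted p = 0.0496, limma).

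Among the ribosomal protein genes that did not pass, rps14 and rpl33 had the only negative ratios of AAA to WT. The gene rps14, for a small subunit protein, gave 66.95 and 61.57 in WT, 46.17 and 37.11 in AAA, and 74.01 and 73.13 in AAa. Both AAA arrays lay below WT and both AAa arrays above it, but these signals are under the 40th percentile and the ratio of AAA had a wide interval (log2 -0.63, 95% confidence interval -1.46 to 0.20, adjusted p = 0.406, limma). For rpl33, of the large subunit, the ratio of -0.37 (SE 0.21) came from AAA array 1 at 3098, while AAA array 2 at 5455 lay between the WT arrays at 5667 and 4978. The gene rpl14 had a ratio of 0.47 (SE 0.23, adjusted p = 0.311), with 540.4 and 921.2 in WT and 1118 and 850.2 in AAA. Its groups overlapped. The gene rps16, which contains an intron, gave 109.5 and 98.62 in WT, 112.0 and 157.9 in AAA, and 123.8 and 127.4 in AAa (log2 0.36 in AAA and 0.27 in AAa). All trisomic arrays of rps16 were above WT, yet neither ratio passed (adjusted p = 0.524 and 0.592, limma). The remaining 9 ribosomal protein genes had ratios between 0.05 and 0.41 in AAA. Among them rps18, of the small subunit, gave 799.2 and 761.6 in WT, 699.1 and 930.8 in AAA, and 1034 and 806.0 in AAa. Its AAA arrays lay on either side of WT and its AAa arrays above it. The large subunit gene rpl32 gave 3106 and 4228 in WT, 3593 and 4061 in AAA, and 5555 and 3336 in AAa, with overlap among all karyotypes. The gene rpl20, also of the large subunit, gave 358.4 and 261.5 in WT, 317.0 and 373.5 in AAA, and 250.0 and 279.2 in AAa. Both AAa arrays of rpl20 lay below both AAA arrays, and WT overlapped with each.

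By subunit, the 8 small subunit genes had median ratios of 0.25 (AAA) and 0.14 (AAa), and the 7 large subunit genes 0.17 and 0.01. The difference between the subunits was not tested.

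The other polymerase genes lay close to WT in AAA. The gene rpoC1, for the beta prime subunit, gave 1055 and 1037 in WT, 888.2 and 1350 in AAA, and 910.0 and 966.1 in AAa. The AAA arrays stood on either side of WT and both AAa arrays stood below it, with ratios of 0.07 and -0.16 (SE 0.17) that did not pass. The gene rpoC2, for the beta double prime subunit, gave 128.4 and 174.4 in WT, with the 4 trisomic arrays between them at 145.2 to 153.3. Its ratios were -0.03 in AAA and 0.03 in AAa, each with an SE of 0.22. The 95% confidence interval of the ratio in AAA ran from -0.54 to 0.47. The gene rpoB, for the beta subunit, was dim in every karyotype, at 48.96 and 43.03 in WT, 47.51 and 49.54 in AAA, and 41.55 and 27.31 in AAa. Its ratios of 0.08 and -0.45 had an SE of 0.46, the largest of all members.

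Of the other genes, clpP, accD and cemA stood at the ends of the range in AAA beside ycf3. The gene clpP encodes the proteolytic subunit of the Clp protease and gave 3264 and 7426 in WT, 6067 and 10270 in AAA, and 5822 and 7112 in AAa. Its WT arrays differed 2.28-fold, and the ratio of 0.68 in AAA (SE 0.34) did not pass (adjusted p = 0.322, limma). The gene accD, for the beta carboxyltransferase subunit of acetyl-CoA carboxylase in fatty acid synthesis, gave 359.0 and 287.2 in WT, 392.8 and 549.9 in AAA, and 415.0 and 658.7 in AAa. All trisomic arrays of accD lay above WT, and the ratio of 0.53 in AAA (SE 0.23) did not pass (adjusted p = 0.243, limma). The envelope protein gene cemA gave 2482 and 1615 in WT, 1452 and 2363 in AAA, and 1696 and 2165 in AAa, so that all groups overlapped (log2 -0.11 in AAA and -0.06 in AAa). The gene matK, for a maturase of group II introns, gave 6684 and 4482 in WT, 5518 and 7350 in AAA, and 6067 and 6760 in AAa. The groups of matK overlapped too, with ratios of 0.22 and 0.23 (SE 0.19). The gene ycf4, for another assembly factor of photosystem I, gave 839.7 and 365.0 in WT, 552.4 and 819.8 in AAA, and 561.8 and 916.5 in AAa. The 2.30-fold gap between its WT arrays was the widest of any member. The gene ccsA, needed to attach heme to cytochromes, gave 4163 and 5783 in WT, 6284 and 5477 in AAA, and 4295 and 5025 in AAa. Both its AAa arrays lay within the WT range, with ratios of 0.26 in AAA and -0.08 in AAa (SE 0.16).

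**Figure D2:**
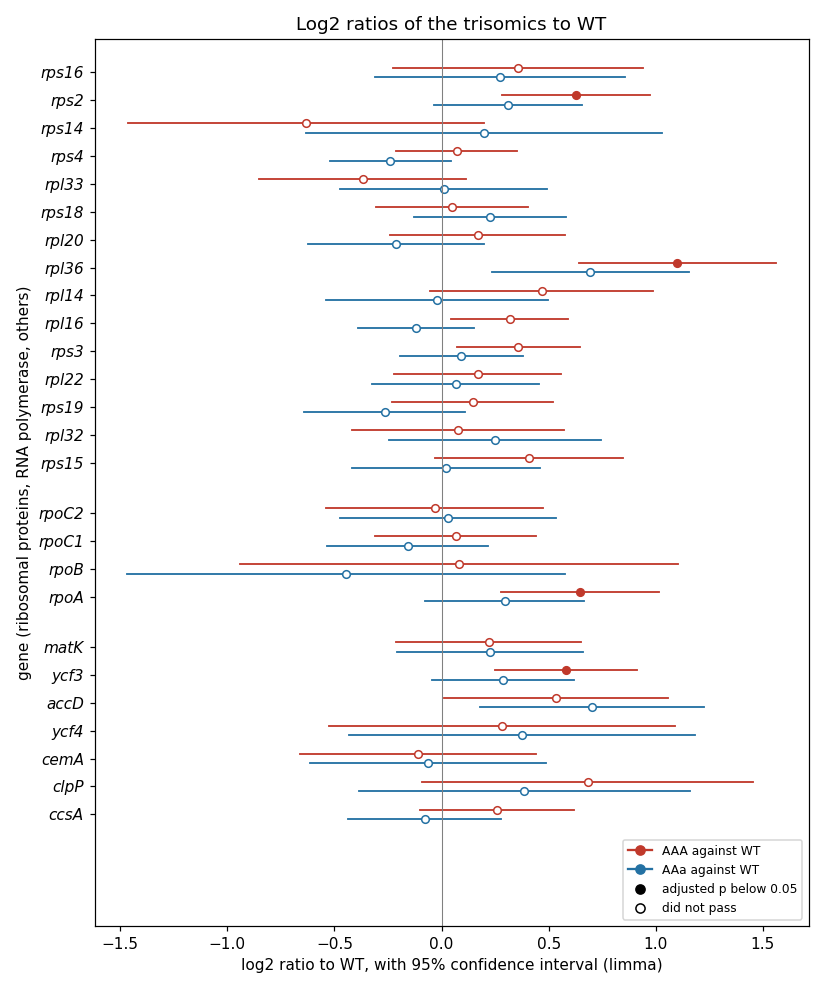
Log2 ratio of AAA (red) and AAa (blue) to WT for each member (horizontal axis, points) with its 95% confidence interval from the limma fit (lines), by gene (vertical axis). Filled points mark an adjusted p below 0.05, which rps2, rpl36, rpoA and ycf3 reached in AAA and no member reached in AAa.

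In AAa, compared with WT, 0 of 26 members passed the limma test in either direction, where 7.20% of all probe sets were higher and 3.17% lower. At an unadjusted p below 0.05, 2 members were higher, rpl36 and accD, and 0 lower, against 15.5% and 8.50% of all probe sets. The ratio of rpl36 was 0.69 (SE 0.21, adjusted p = 0.0640, limma) and that of accD was 0.70 (SE 0.23, adjusted p = 0.0928). The median ratio was 0.08 over the members and 0.10 over all probe sets. Of the ratios 17 of 26 were positive, as were 59.0% over all. Among the 5508 expressed nuclear genes with 2 copies the median was -0.001 and 49.9% were positive, with 4.10% called higher and 5.32% lower. Both AAa arrays lay above WT for 7 members and below for 4, against 33.1% and 19.6% of all probe sets. By group, the medians were 0.07 for ribosomal proteins, -0.06 for polymerase subunits and 0.29 for the others.

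Whether rpl36 passed in AAa depended on WT array 1. Without that array it was higher in AAa (log2 1.05, adjusted p = 0.0187, limma), and without WT array 2 the ratio was 0.34. The positive ratios next in size among ribosomal protein genes were those of rps2 at 0.31 (SE 0.15) and rps16. The most negative were rps19 at -0.27, rps4 at -0.24 and rpl20 at -0.21, all of which missed the threshold (adjusted p = 0.391, 0.293 and 0.547, limma). The gene rps4, for a small subunit protein, gave 3869 and 4939 in WT, 4480 and 4704 in AAA, and 3550 and 3864 in AAa. Both AAa arrays of rps4 were below all other arrays, the nearest WT array by a narrow margin. Among the others, clpP and ycf4 had ratios of 0.39 (SE 0.34) and 0.37 (SE 0.36) in AAa. The ratio of rpoA in AAa was 0.30 (SE 0.16, adjusted p = 0.327, limma).

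The trisomics were also compared with each other directly. Of the 26 members, rpl16 was lower in AAa than in AAA and 0 were higher, where 5.69% of all probe sets were lower and 5.38% higher. At an unadjusted p below 0.05, 3 members were lower (rpl16, rps4 and rps19) and 0 higher in the limma fit, against 11.8% and 12.6% of all probe sets. The gene rpl16, for a protein of the large subunit, gave 377.4 and 405.0 in WT, 488.1 and 485.8 in AAA, and 350.5 and 369.7 in AAa. The 3 karyotypes did not overlap, with AAA highest and AAa lowest. It was 1.35-fold lower in AAa than in AAA (log2 -0.44, SE 0.12, adjusted p = 0.0475, limma), while its ratios to WT of 0.32 in AAA and -0.12 in AAa did not pass (adjusted p = 0.173 and 0.619). The call was lost when any of the 6 arrays was left out (log2 -0.47 to -0.40, adjusted p between 0.0545 and 0.206, limma).

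The difference of AAa from AAA was negative for 17 of 26 members, as for 44.8% of all probe sets, with a median of -0.28 against 0.06 over all. Both AAa arrays lay below both AAA arrays for 11 members and above for 2, against 24.3% and 30.3% of all probe sets. Among the expressed nuclear genes with 2 copies these shares were 27.8% and 27.8%, and their median difference was -0.001. The ribosomal proteins had a median of -0.31 and the polymerase genes of -0.29, while the 7 others had 0.01. The most negative ribosomal differences besides rpl16 were rpl14 at -0.49 (SE 0.23) and rps19 at -0.41 (SE 0.17). The most positive was rps14 at 0.83 (SE 0.37, adjusted p = 0.205, limma), followed by rpl33 at 0.38 and rps18 at 0.18. The rpl33 difference became a call without AAA array 2 (log2 0.79, adjusted p = 0.0272, limma) and was -0.03 without AAA array 1. Among the others, ccsA, clpP and ycf3 differed by -0.34, -0.30 and -0.29, and accD, ycf4 and cemA by 0.17, 0.09 and 0.05. The polymerase genes rpoB, rpoA, rpoC1 and rpoC2 differed by -0.53, -0.35, -0.22 and 0.06.

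The levels on single arrays put a scale on these medians. Measured from the WT mean, the median ribosomal protein gene lay at 0.06 and 0.29 in AAA and at 0.13 and -0.06 in AAa. The polymerase genes lay at 0.01 and 0.24 in AAA and at -0.05 on both AAa arrays. The others lay at 0.29 and 0.53 in AAA and at 0.13 and 0.44 in AAa. The WT arrays were 0.07, 0.09 and 0.32 apart on the same scale. AAA array 1 and AAa array 2 were within the WT range for the polymerase genes, and AAa array 1 was within it for the others. AAA array 2 was above AAA array 1 for 20 of the 26 members, and AAa array 2 was above AAa array 1 for 7 of the 7 others. For the members, arrays of 1 karyotype were at the median 0.34 (WT), 0.29 (AAA) and 0.26 (AAa) apart, and 0.17, 0.15 and 0.15 for the expressed nuclear genes with 2 copies throughout.

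**Figure D3:**
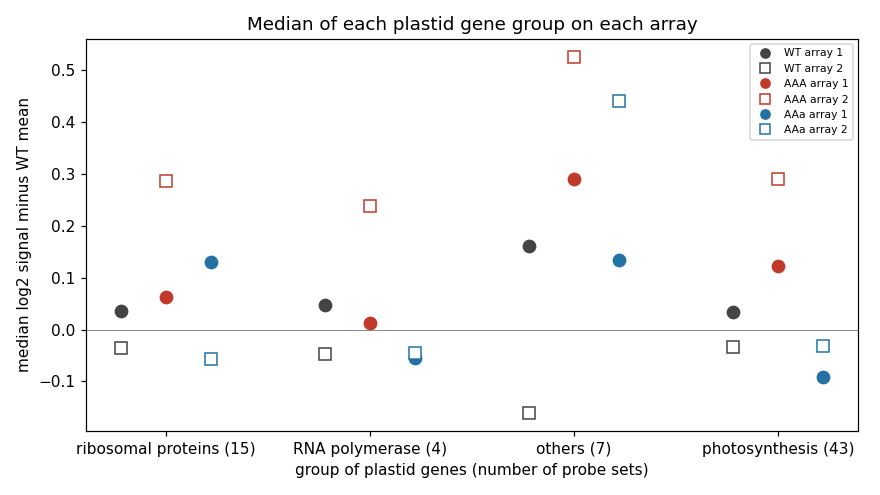
Median over genes of the log2 signal minus the WT mean (vertical axis) on each array, for the ribosomal protein, polymerase, other and photosynthesis genes of the plastid (horizontal axis; colours for karyotypes, circles for array 1 and squares for array 2). AAA array 2 is the highest of the 6 arrays in each of the 4 groups, at 0.24 to 0.53. For the photosynthesis genes the AAa arrays lie at -0.091 and -0.031 and the WT arrays at 0.034 and -0.034. AAa array 2 is thus within the WT range there.

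The 43 photosynthesis genes of the plastid, which share the template and the organelle, gave medians of 0.22 in AAA and -0.07 in AAa relative to WT and -0.30 between AAa and AAA. Of them 1 was higher in AAA than in WT and 0 lower, against 5.72% and 1.43% of all probe sets. In AAa, 2 were higher and 4 lower than WT, against 7.20% and 3.17% of all probe sets. Compared with AAA, 8 were lower in AAa and 0 higher, against 5.69% and 5.38%. The 2 genes higher in AAa than in WT were ndhF and ndhH. The mean signal of ndhF was below the level taken as expressed, with 14.33 and 22.62 in WT and 71.25 and 67.97 in AAa. The member median minus the photosynthesis median came to -0.07 and 0.03 for AAA and to 0.22 and 0.07 for AAa, with 0.03 between the WT arrays.

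Genes transcribed together were then compared within their unit. The longest runs from rpl23 to rpoA, and 7 of its genes were members, in the order rps19, rpl22, rps3, rpl16, rpl14, rpl36 and rpoA. In AAA all 7 ratios to WT were positive, from 0.15 for rps19 to 1.1 for rpl36, with a median of 0.36. In AAa the median was 0.07 and the range ran from -0.27 for rps19 to 0.69 for rpl36. The ratios of AAa to AAA of the 7 genes were all negative, from -0.49 to -0.10. Of the genes in this unit not yet described, rps3 gave 6604 and 6757 in WT, 8069 and 9078 in AAA, and 7884 and 6424 in AAa. Both AAA arrays of rps3 were above WT (log2 0.36, SE 0.13, adjusted p = 0.147, limma), and the AAa arrays lay on either side. The gene rpl22 gave 7955 and 5825 in WT, 7107 and 8231 in AAA, and 6275 and 8084 in AAa. The gene rps19 gave 3540 and 3721 in WT, 3561 and 4525 in AAA, and 3597 and 2532 in AAa. Their groups overlapped. As rpl36 and rpoA lie near the end of the unit and rps19 and rpl22 near its start, the plot of the unit in gene order shows the ratios of rpl36 and rpoA above those of the leading genes in both trisomics. This order was seen in the data and was not tested.

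**Figure D4:**
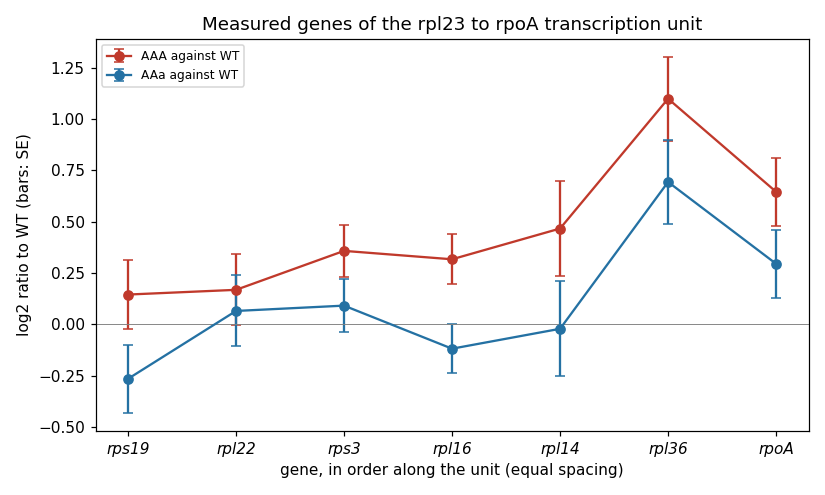
Log2 ratio of AAA (red) and AAa (blue) to WT, with SE bars (vertical axis), for the 7 measured genes in their order along the rpl23 to rpoA unit, equally spaced (horizontal axis). The highest point is rpl36 in both, at 1.1 and 0.69, and the AAA points lie above the AAa points for all 7 genes.

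Elsewhere the ratios within a unit varied, but no difference within a unit was tested. The genes rpoB, rpoC1 and rpoC2, transcribed as one unit, ranged from -0.03 to 0.08 in AAA. The gene rps2, which lies between rpoC2 and ATP synthase genes, stood at 0.63 in AAA. Beside it were atpI at 0.21, atpH at 0.34, atpF at 0.25 and atpA at 0.26, none of which passed. In AAa the order differed, with rps2 at 0.31 and these genes at 0.74, 0.21, -0.001 and -0.40, and none passed. In the unit of accD, ycf4 and cemA, which have SEs of 0.23, 0.36 and 0.25, the photosynthesis gene psaI lies between accD and ycf4, and petA follows cemA. In the order accD, psaI, ycf4, cemA and petA the ratios were 0.53, -0.04, 0.28, -0.11 and 0.46 in AAA, and 0.70, 0.15, 0.37, -0.06 and 0.28 in AAa, with no steady trend along the unit and none past the threshold. In AAA the neighbours rpl33 and rps18 had -0.37 and 0.05 (SE 0.21 and 0.16), and rpl20 and clpP had 0.17 and 0.68 (SE 0.18 and 0.34). The gene rps14 at -0.63 (SE 0.37) lies beside psaA and psaB at 0.05 and -0.17 (SE 0.24 and 0.15). The gene rps15 at 0.41 lies beside ndhH at 0.33. The signal of rps15, a small subunit gene, was 231.9 and 170.8 in WT, 259.6 and 268.5 in AAA, and 216.6 and 188.0 in AAa. Both AAA arrays of rps15 were above WT, though the ratio did not pass (SE 0.20, adjusted p = 0.292, limma).

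Nuclear genes whose products work with the members were examined from lists of 83 genes. For 15 of them the annotation used here gave a probe set for that gene alone. The other 68 were not analysed here. They may still be on the array, where 8794 probe sets were annotated to no gene. Of 32 nuclear genes for plastid ribosomal proteins 8 had such a probe set. Their medians, without those whose copy number differs, were 0.00 in AAA, -0.13 in AAa and -0.19 between AAa and AAA. None of the 8 passed against WT in either trisomic. PRPL3 was lower in AAa than in AAA (log2 -0.64, SE 0.12, adjusted p = 0.00987, limma), but it lies on the part of Chr.2 with 3 copies in AAA and 2 in AAa. PYG7, a nuclear assembly factor of photosystem I like ycf3 and ycf4, fell in AAa. It gave 1728 and 1278 in WT, 1171 and 1123 in AAA, and 1027 and 1029 in AAa (log2 -0.53, SE 0.13, adjusted p = 0.0357, limma). In AAA its ratio of -0.37 did not pass (adjusted p = 0.150). Of the 8 polymerase regulators only RPOTMP, a phage-type polymerase of mitochondria and plastids, was measured, at 44.12 and 49.59 in WT, 51.80 and 92.21 in AAA, and 73.01 and 84.25 in AAa. Its ratios of 0.56 and 0.75 (SE 0.40) did not pass. The 6 sigma factors were not analysed here. CLPP4 and CLPR3, partners of clpP, had ratios of 0.28 and -0.22 in AAA, and CCS1 and CCDA, partners of ccsA, had 0.19 and 0.03, with 0 of these 4 passing (adjusted p between 0.216 and 0.914, limma). The splicing factor CAF1, with 3 copies in both trisomics, had 0.26 and 0.25, which did not pass either.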

How the data were processed

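The deposited values are intensity units. The authors scanned single-colour ATH1 arrays and turned them into linear probe set signals with GCOS (version not given in the sources used here), one column per sample, with a trimmed mean of 500.0 to 500.1 on each array. The study itself used GC-RMA and vsn values, which were not used here. RNA was labelled by the manufacturer's protocol, but the sources used here do not name its primer. Standard kits prime on poly(A) tails, which plastid transcripts mostly lack, so levels need not follow total plastid RNA.

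Signals below 1 (246 to 489 per array) were set to 1 and taken to log2. Arrays were then centred on their medians over 5508 expressed probe sets of the chromosome regions with 2 copies in every karyotype. These regions are Chr.1, 4 and 5 and the part of Chr.3 after AT3G20040. Expressed means at or above the 40th percentile (log2 6.28). All 22746 probe sets without the 64 controls entered 1 limma 3.58.1 fit (R 4.3.3, moderated by eBayes with a trend on intensity, two-sided tests, threshold 0.05) of 6 arrays and 3 groups, with 3 residual and 6.49 prior degrees of freedom. The code was tested on simulated data. Karyotypes and replicate numbers came from the sample titles.

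GEO's platform annotation gave 1 gene for 13513 probe sets, several for 503 and none for 8794, and 77 of those with 1 gene had no matching locus. All 26 members had the same symbol in RefSeq (TAIR10.1), which was used for names and gene order only. Nuclear genes were taken at their brightest probe set annotated to 1 gene, and genes without one were not analysed. Genes were named by a rule: all polymerase members, each member past the threshold and the 3 largest ratios each way among ribosomal proteins and among the others, the 5 defining genes, and nuclear genes past the threshold. Members shown for their unit go beyond it. The members, lists, units and rules were chosen with earlier results of these data known. No list was tested as a set.

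Same-numbered arrays of different karyotypes did not deviate together, so the numbers were not used to pair them. Alternatives were another floor, a pseudocount of 16, a filter, 4 scalings, no trend, array weights, a replicate block and leaving out each array. With 1 array of a group left out, the other was assumed to vary like the other groups. No arrays of a karyotype had identical values. Intervals cover the spread between arrays, and 2 arrays per group limit precision.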

Additional observations from a re-analysis of the deposited data

Results flagged for a closer look

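rps14 was flagged because its AAA arrays both lay below WT and its AAa arrays both above. The share of all probe sets with this pattern was not counted. Nor was the share with all karyotypes separate, as seen for rps2, ycf3 and rpl16. AAa differed from AAA by 0.83 on the log2 scale, and the test of this difference did not pass (adjusted p = 0.205, limma), at signals under the 40th percentile. rpl16 was flagged because AAa and AAA differed by -0.436 in a test of the difference itself (adjusted p = 0.0475, limma), while neither of its ratios to WT passed the same test.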

How the results depend on the processing

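The 4 calls in AAA against WT depended on the processing. With the 40th percentile filter the same 4 genes were called. With a pseudocount of 16, signals as deposited, centring on all expressed probe sets, quantile normalization, centring on plastid photosynthesis genes, or array weights, 1 member (rpl36) was called, and with a floor of 16 or no intensity trend 0 were. Without a trend no probe set of the table was called in any comparison. Adding a replicate block left 1 call in AAA against WT (rpl36) and 0 in AAa against AAA; the numbers do not pair the arrays (correlations of deviations -0.042, 0.00992 and -0.0415). In AAa against WT, 2 members (accD and rpl36) were called with the filter and with photosynthesis centring, and 1 (rpl36) with quantile normalization. In AAa against AAA, rpl16 was lost (0 lower) with the pseudocount, as deposited, photosynthesis centring or no trend, and photosynthesis centring called 1 member higher (rpl33).

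Medians of AAa against WT moved with photosynthesis centring to 0.356 (ribosomal), 0.226 (polymerase) and 0.577 (others). The polymerase median was 0.029 with the filter, which drops rpoB, -0.152 with centring on all expressed probe sets and -0.165 with quantile normalization. Medians of AAa against AAA became 0.002, 0.024 and 0.32 with photosynthesis centring, and the ribosomal one -0.157 with quantile normalization. That centring moves the median nuclear gene by 0.29 in AAa. With the 3 other scalings the median nuclear gene lies at -0.09 in AAA, against -0.01 in the main fit, and at -0.05 to -0.09 in AAa. Apart from what the construction shows, the cause was not tested.

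With 1 array left out, members called in AAA against WT ranged from 0 to 2 higher and 0 to 1 lower. In AAa against WT they ranged from 0 to 1 higher and 0 to 0 lower, and in AAa against AAA from 0 to 1 higher and 0 to 0 lower. Ribosomal medians ranged from 0.062 to 0.287, from -0.056 to 0.13 and from -0.345 to -0.181 in these comparisons. Polymerase medians ranged from 0.013 to 0.239, from -0.169 to 0.021 and from -0.497 to -0.091, and those of the others from 0.282 to 0.526, from 0.134 to 0.44 and from -0.26 to 0.215. Of 795 named ratios under an alternative 679 kept their side of the threshold and their sign, 59 lost a call, 9 gained one and 48 without a call changed sign. No called ratio reversed.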
